A study of Homo sapiens with 4 samples.

Results

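The 10 genes described here encode amino acid transporters of the plasma membrane and were followed in MDA-MB-468 cells with 4 whole-transcript expression arrays (Affymetrix Human Gene 1.0 ST), among 18417 named genes in all. They were chosen by name: SLC6A14 was selected on its higher signal after p53 knockdown on these same arrays, and SLC7A5, SLC7A11, SLC3A2, SLC1A5, SLC1A4, SLC38A1, SLC38A2, SLC7A1 and SLC7A8 were added as its functional relatives with results of the arrays in view. Their differences between the groups are therefore given as a description, without a test. Each gene was read from the transcript cluster with the highest mean signal, and all 10 were measured.

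MDA-MB-468, an established line of human breast cancer cells, expresses a mutant p53 with the R273H change. On 2 arrays the RNA came from cells transduced with p53si-1, a lentiviral shRNA directed against human p53. On the other 2 it came from cells transduced with a non-targeting lentiviral shRNA (NS). All cells were of the same line and all received a lentivirus, and 1 shRNA sequence stands for the knockdown. The p53 transcript is not analysed here, and the study's methods and results give different lengths of transduction. Values are log2 RMA signals, in which 1 unit is a factor of 2. On an array the signal also depends on the probes, so levels are compared between groups of arrays for a gene and not between genes. A probe set is called dim where its signal is near or under the first quartile of all signals, which describes the probe set and not the amount of RNA. In RNA from a whole culture, a change in the share of cells that express a gene and a change in RNA per cell cannot be told apart.

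Cells import amino acids through carriers of several families that work together. Accumulative carriers such as SLC6A14 and the SLC38 proteins use the sodium gradient for net uptake, while exchangers such as SLC7A5 and SLC1A5 swap 1 amino acid for another and depend on the pool that the accumulative carriers fill. The light chains SLC7A5, SLC7A8 and SLC7A11 reach the surface bound to the heavy chain SLC3A2, and the cystine that SLC7A11 brings in serves glutathione synthesis. Several of these genes are induced through the transcription factor ATF4 when amino acids run short, and many tumours express them at high levels.

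The promoter windows of these genes differ in base composition. The RefSeq windows of GRCh38.p14 run from 250 bases before to 50 bases after a transcription start. They were found for 9 of the 10 genes, with 18 windows among them because some genes have several starts. SLC7A11 had no window, so its promoter was neither described nor searched for the motifs below. SLC6A14, the gene with the largest difference between the groups, has 1 window, chrX:116436356-116436655 on the plus strand, and SLC7A5 has 1 window, chr16:87869458-87869757 on the minus strand. Both are shown because they stand far apart in their number of CpG dinucleotides, which are in capitals, 4 in SLC6A14 and 44 in SLC7A5.
SLC6A14: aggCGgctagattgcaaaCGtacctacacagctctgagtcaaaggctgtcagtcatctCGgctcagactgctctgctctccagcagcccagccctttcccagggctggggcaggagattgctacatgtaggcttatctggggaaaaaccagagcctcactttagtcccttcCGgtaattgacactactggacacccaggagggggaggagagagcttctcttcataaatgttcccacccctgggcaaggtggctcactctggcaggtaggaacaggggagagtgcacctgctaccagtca
SLC7A5: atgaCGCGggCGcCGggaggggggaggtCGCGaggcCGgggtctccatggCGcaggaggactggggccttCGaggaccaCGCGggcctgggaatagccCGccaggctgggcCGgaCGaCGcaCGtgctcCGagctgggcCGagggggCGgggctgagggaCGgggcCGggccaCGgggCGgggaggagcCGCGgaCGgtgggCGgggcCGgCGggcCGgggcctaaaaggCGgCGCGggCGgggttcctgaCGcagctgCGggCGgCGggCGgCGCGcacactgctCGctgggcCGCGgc
The ratio of observed to expected CpG was 0.17 in the SLC6A14 window, against a median of 0.58 over all 35116 windows, of which 18.3% lay at or under the SLC6A14 value. In SLC7A5, SLC7A1, SLC38A2, SLC1A4 and SLC3A2 every window lay above that median, with ratios of 0.98 for SLC7A5, 0.975 for SLC7A1 and 0.87 for SLC38A2. SLC1A5 and SLC38A1 each had 1 window below it, at 0.33 and 0.45. SLC7A8 was mixed, with 2 overlapping windows at 0.09 and 0.15 and the other two at 0.55 and 0.68.

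**Figure D1:**
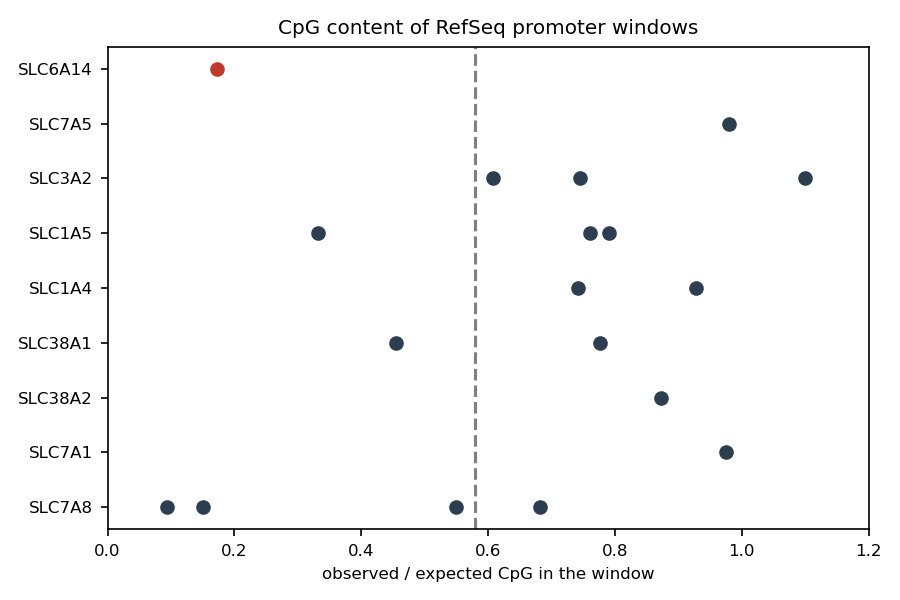
Observed over expected CpG content (horizontal axis) of each RefSeq promoter window of 9 transporter genes, 1 point per window, with SLC6A14 in red. The dashed line is the median of 0.58 over all windows, and SLC6A14 lies at 0.17, close to 2 of the SLC7A8 windows.

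A C/EBP-ATF response element, the kind of site through which ATF4 acts, was searched as TGATGNAA on both strands. It was found in windows of 5 of the 9 genes, in 5 of their 18 windows, against 3.62% of all windows. The 5 matches, in capitals with up to 10 bases on each side, are shown because they fall in SLC3A2, SLC1A5, SLC1A4, SLC38A1 and SLC7A1 and are not found in the windows of SLC6A14, SLC7A5, SLC38A2 and SLC7A8.
SLC3A2 (chr11:62881726-62881748, plus strand): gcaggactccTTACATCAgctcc
SLC1A5 (chr19:46784894-46784921, minus strand): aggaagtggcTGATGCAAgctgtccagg
SLC1A4 (chr2:64989382-64989409, plus strand): cggctcccgtTTGCATCAtctccagccg
SLC38A1 (chr12:46266503-46266530, minus strand): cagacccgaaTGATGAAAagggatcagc
SLC7A1 (chr13:29595664-29595691, minus strand): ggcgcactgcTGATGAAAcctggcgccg
An antioxidant response element, the site of the transcription factor NFE2L2, was searched as TGACNNNGC on both strands and matched in SLC7A5, SLC3A2, SLC1A5 and SLC7A1, in 4 of the 18 windows against 13.3% of all. The E-box CACGTG matched in SLC7A5, SLC1A5 and SLC7A8 (7.26% of all windows), and TATAAA on either strand in SLC38A1 (11.5% of all windows). The SLC6A14 window held none of these letters. None of the matches in these genes overlapped another. A match describes the sequence only.

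On the arrays, SLC6A14 was the transporter with the largest difference. SLC6A14 (transcript cluster 8169504) encodes a sodium- and chloride-coupled carrier that accumulates neutral and cationic amino acids. Its log2 signals were 5.65 and 6.04 on the p53si-1 arrays, against 4.55 and 5.05 on the NS arrays. Both p53si-1 arrays lay above both NS arrays, and replicate 2 was the higher array in each group. The means were 5.85 ± 0.28 with p53si-1 and 4.80 ± 0.36 with NS (SD, n = 2 arrays each), a log2 difference of 1.05, or 2.07-fold (95% interval 0.56 to 1.53 from limma). Between same-numbered arrays the difference was 1.104 for replicate 1 and 0.99 for replicate 2. The NS signals lay near the first quartile of all signals, which was 4.72, so the probe set was dim on the NS arrays.

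The cystine and glutamate exchanger differed in the other direction. SLC7A11 (cluster 8102800) had log2 signals of 7.35 and 7.88 on the p53si-1 arrays, against 8.08 and 8.37 on the NS arrays. Both p53si-1 arrays lay below both NS arrays, with p53si-1 replicate 2 and NS replicate 1 the closest to each other. The means were 7.62 ± 0.37 with p53si-1 and 8.22 ± 0.20 with NS (SD, n = 2 arrays each), a log2 difference of -0.61, or 1.52-fold lower (95% interval -1.06 to -0.15). Same-numbered arrays differed by -0.72 for replicate 1 and by -0.49 for replicate 2. Without p53si-1 replicate 1 the difference was -0.34, so that array carries much of its size.

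SLC6A14 and SLC7A11 were the only genes among the 10 to differ by over 1.5-fold, 1 in each direction. Across the arrays as a whole, differences past 1.5-fold were seen in 0.271% of genes in the higher direction and in 0.652% in the lower. At an adjusted p under 0.05 from limma over all genes, 0.0326% rose and 0.076% fell, and none of the 10 is among them. Since the genes were selected on this contrast, the limma result is no test of them, and nothing is read from these counts.

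**Figure D2:**
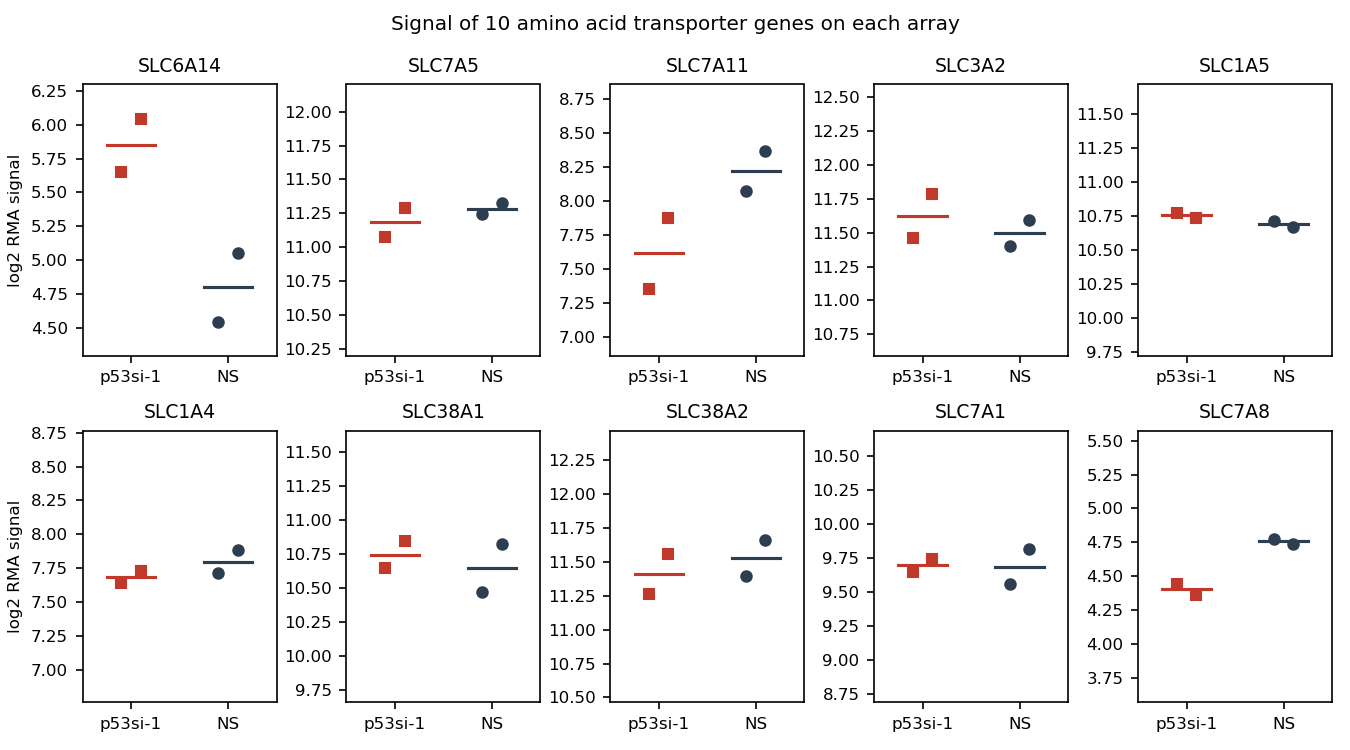
Log2 RMA signal (vertical axes, each spanning 2 units) of the 10 transporter genes, with p53si-1 arrays as red squares, NS arrays as dark circles and group means as bars. The arrays of the groups are set apart for SLC6A14, SLC7A11 and SLC7A8, narrowly for SLC1A5, and overlap for the other genes.

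The light chains among these genes that bind the heavy chain SLC3A2 are SLC7A5, SLC7A8 and SLC7A11. Their means were lower with p53si-1, by sizes that ranged from -0.10 for SLC7A5 to -0.61 for SLC7A11. Over all genes, 9693 of 18417 had a lower mean. SLC7A5, the exchanger of large neutral amino acids known as LAT1, had log2 signals of 11.08 and 11.29 with p53si-1, against 11.24 and 11.32 with NS. The groups overlapped, and the difference was -0.10 (95% interval -0.35 to 0.15). Without p53si-1 replicate 1 it was 0.008, so the direction for SLC7A5 is not settled. Its relative SLC7A8, or LAT2, was at 4.44 and 4.36 with p53si-1, against 4.78 and 4.74 with NS. Both p53si-1 arrays of SLC7A8 lay below the NS arrays, by a mean of 0.36 on the log2 scale, or 1.28-fold (95% interval of the difference -0.56 to -0.16). SLC7A8 was dim on every array, with p53si-1 signals under the first quartile of all genes. The heavy chain SLC3A2 itself had signals of 11.46 and 11.78 with p53si-1, against 11.40 and 11.59 with NS, a difference of 0.13 (95% interval -0.20 to 0.45). The SLC3A2 arrays of the groups overlapped.

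For the cationic carrier SLC7A1, which imports arginine and lysine without a heavy chain, the signals were 9.65 and 9.75 with p53si-1, against 9.56 and 9.82 with NS. The p53si-1 values lay between the NS values, the difference was 0.01 (95% interval -0.26 to 0.28), and its sign was negative after quantile normalization.

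The neutral exchangers of the SLC1 family had small differences on the clusters used here, while a second SLC1A5 cluster differed by 0.26. SLC1A5, known as ASCT2 and a main route of glutamine uptake, had log2 signals of 10.77 and 10.74 with p53si-1, against 10.71 and 10.67 with NS. Both p53si-1 arrays were the higher, but by a mean of 0.06 (95% interval -0.13 to 0.26), and the arrays of each group lay within 0.05 of each other. SLC1A4, which carries alanine, serine and cysteine, was at 7.64 and 7.73 with p53si-1, against 7.72 and 7.88 with NS. These overlapped by 1 array, with a difference of -0.11 (95% interval -0.35 to 0.12).

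The sodium-coupled carriers SLC38A1 and SLC38A2, which take up glutamine and alanine and lie close together on chromosome 12, differed less between the groups than their arrays did within a group, and the sign of either difference changed when certain arrays were left out. SLC38A1 was at 10.65 and 10.85 with p53si-1, against 10.47 and 10.83 with NS, a difference of 0.10 (95% interval -0.25 to 0.44). SLC38A2, the member of the pair that is induced on amino acid starvation, was at 11.26 and 11.56 with p53si-1, against 11.39 and 11.66 with NS, a difference of -0.12 (95% interval -0.45 to 0.22). The groups overlapped for both genes.

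Of the 10 genes, 2 had both p53si-1 arrays above both NS arrays (SLC6A14 and SLC1A5), 2 had them below (SLC7A11 and SLC7A8) and 6 overlapped. Over all genes these separations occurred in 19.9% and 22.6%. The median difference of the 10 genes was -0.045, against -0.01 over all genes, and 7 of the 10 lay within 1.1-fold of NS. A difference within 1.1-fold in 2 arrays per group does not show that a gene was unchanged, since the intervals reach well beyond it.

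**Figure D3:**
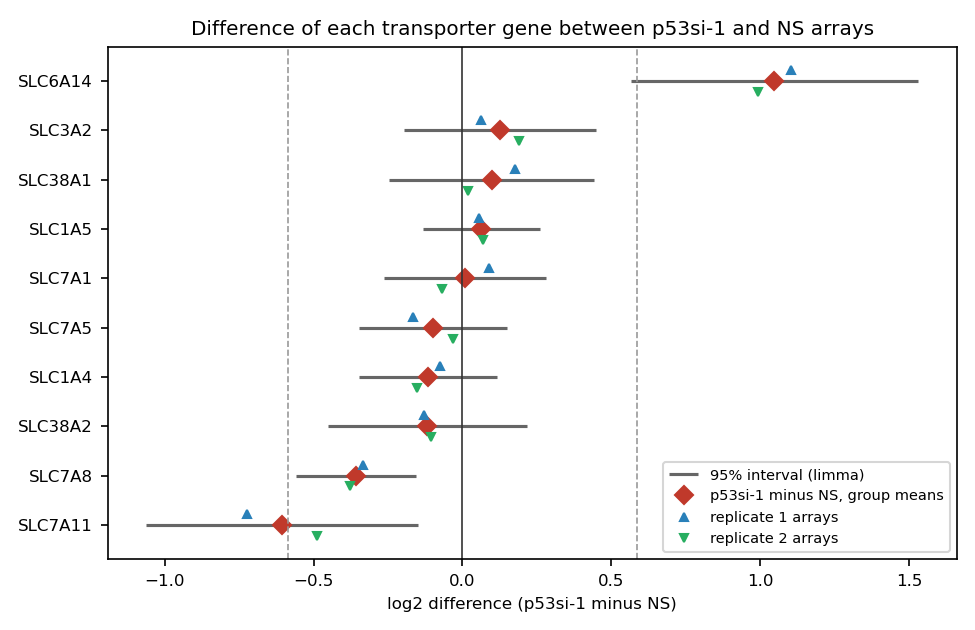
Log2 difference (p53si-1 minus NS, horizontal axis) of each transporter gene, with group means as diamonds, 95% intervals from limma as bars and same-numbered arrays as triangles. Dashed lines mark 1.5-fold, and SLC6A14 at 1.05 and SLC7A11 at -0.61 lie beyond them.

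Within the groups, most of these genes were higher on the second replicate. In 8 of the 10, replicate 2 exceeded replicate 1 both with p53si-1 and with NS, against 26.1% of all genes, while SLC1A5 and SLC7A8 were lower on replicate 2 in both groups, against 32% of all genes. This comparison does not use the contrast on which the genes were selected, and it was chosen after the values were seen. For SLC6A14, replicate 2 minus replicate 1 was 0.39 with p53si-1 and 0.51 with NS, and for SLC7A11 it was 0.53 and 0.29. SLC38A2 gave 0.29 and 0.27, SLC3A2 gave 0.32 and 0.19, and SLC38A1 gave 0.20 and 0.36, in the same order of groups.

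With group and replicate number in 1 limma model, the replicate difference was 0.45 for SLC6A14 (95% interval 0.25 to 0.65), 0.41 for SLC7A11 (0.18 to 0.64) and 0.28 for SLC38A2 (0.09 to 0.47). None of the 10 passed after adjustment over all genes, the lowest adjusted p from limma being 0.331 for SLC6A14, and of all genes 0% passed. At an unadjusted p under 0.05 there were 5 of the 10 genes and 2046 of all genes, which is 11.1%. No source says what the replicate number marks. For SLC6A14, SLC7A11 and SLC38A2 the difference between replicates was thus of a size with, or larger than, most group differences among the 10 genes. The group differences of SLC6A14 (1.05) and SLC7A11 (-0.61) were larger in size than their own replicate differences. That of SLC38A2 (-0.12) was smaller.

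**Figure D4:**
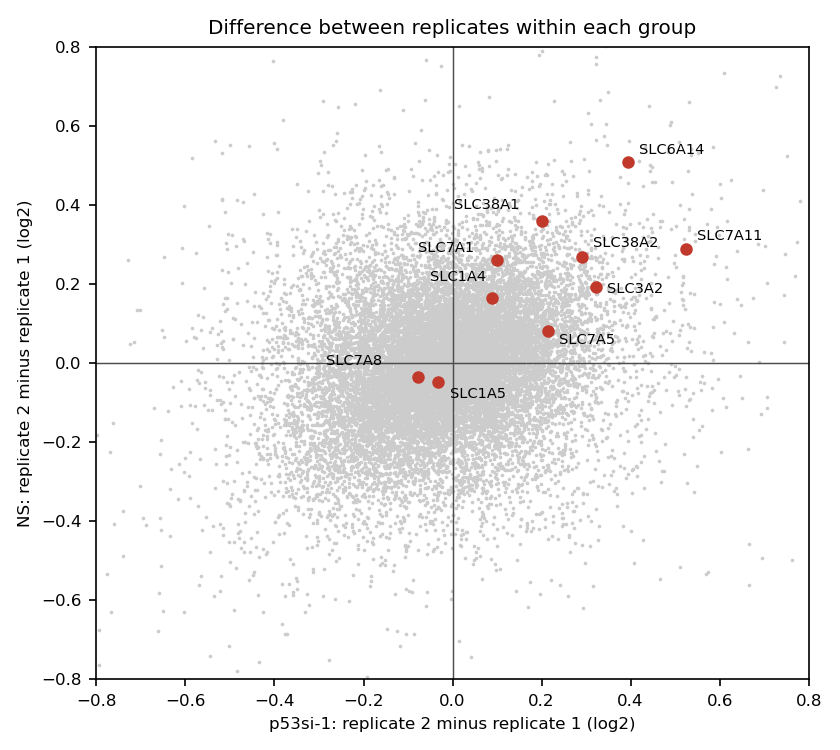
Replicate 2 minus replicate 1 (log2) within the p53si-1 arrays (horizontal axis) and within the NS arrays (vertical axis), with the 10 transporter genes in red and all genes in grey, of which 48 lie outside the range drawn. The upper right quadrant holds 8 of the 10, with SLC6A14 and SLC7A11 farthest out.

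By the root mean square distance between centred log2 signals on the 4 arrays, the genes whose pattern was most like SLC6A14 were NPY1R (distance 0.08), TULP3 (0.15), ZNF814 (0.16), KIAA0319 (0.18) and HTR2A (0.18). NPY1R, a neuropeptide Y receptor, had log2 signals of 9.61 and 10.06 with p53si-1, against 8.71 and 9.17 with NS, and so shared both the higher p53si-1 signals and the higher replicate 2. HTR2A, a serotonin receptor, was at 8.16 and 8.78 with p53si-1, against 7.58 and 7.82 with NS. Among the other 9 genes described here, the closest was SLC3A2, which ranked 1484 by this distance. SLC7A11 ranked 18209. With 4 arrays many patterns are alike, so the distances are a description.

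The remaining genes of amino acid transport were taken from lists. Of 17 measured SLC6 genes other than SLC6A14, 0 rose and 0 fell at an adjusted p under 0.05 from limma over all genes, with a median difference of -0.06. SLC6A6, the taurine transporter, was at 8.38 and 8.27 with p53si-1, against 8.79 and 8.73 with NS, a difference of -0.43 (adjusted p = 0.15 from limma). The noradrenaline transporter SLC6A2 differed by -0.35, the GABA transporter SLC6A13 by 0.29 and the creatine transporter SLC6A8 by -0.24. The SLC6A8 arrays of the groups overlapped, and SLC6A13 was dim on the NS arrays, at 4.93 and 4.83. Without p53si-1 replicate 1, SLC6A13 differed by 0.10 and SLC6A8 by -0.06. No SLC6 gene apart from SLC6A14 differed by over 1.5-fold, and the highest of the others was at 0.29.

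Among 22 measured genes of other surface transporters, 0 rose and 0 fell by the same test, with a median of -0.03. The largest differences were those of SLC1A3 and SLC1A1, which carry glutamate with sodium. SLC1A3 was at 8.60 and 8.79 with p53si-1, against 9.47 and 9.38 with NS, a difference of -0.73 (95% interval -0.97 to -0.49, adjusted p = 0.0658 from limma). SLC1A1 was at 5.31 and 5.10 with p53si-1, against 5.79 and 5.67 with NS, a difference of -0.53 (adjusted p = 0.142 from limma). Both genes had the p53si-1 arrays below the NS arrays. The other sodium-coupled glutamate carriers of the list overlapped between the groups, with SLC1A2 at 0.08, SLC1A6 at -0.02 and SLC1A7 at 0.05. The proton-coupled carrier SLC36A2 and the light chain SLC7A7 followed at -0.38 and -0.35, and both were dim.

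Of 19 measured transporters of lysosomes, vesicles and mitochondria, 0 rose and 0 fell, with a median of -0.03. SLC38A9, a lysosomal carrier that signals arginine to mTORC1, was at 8.07 and 8.48 with p53si-1, against 7.74 and 7.79 with NS, a difference of 0.51 (adjusted p = 0.244 from limma). Its p53si-1 arrays lay above the NS arrays but were 0.41 apart. SLC7A14, which was dim on every array, differed by -0.41, and by -0.20 without NS replicate 1. The mitochondrial glutamate carriers SLC25A18 and SLC25A22 differed by -0.28 and -0.23.

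Downstream of transport, 24 measured enzymes of amino acid and glutathione metabolism included 0 that rose and 0 that fell, with a median of -0.02. Lower means were found in 20 of the 24, against 9693 of all 18417 genes. PSPH, which makes serine from phosphoserine, was at 10.81 and 10.70 with p53si-1, against 11.27 and 11.31 with NS, a difference of -0.54 (adjusted p = 0.0903 from limma). PYCR1 and GPT were at -0.18 and -0.15 and SHMT1 at 0.17. The enzymes other than PSPH lay between -0.18 and 0.17 on the log2 scale.

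None of 24 amino acid response genes, those of the kinase GCN2 and of ATF4, passed in either direction, and their median difference was -0.02. The largest differences were -0.24 for ATF3, -0.22 for STC2, 0.21 for VLDLR and -0.20 for FGF21. The list thus spanned -0.24 to 0.21, which is less than the difference of SLC6A14 or SLC7A11.

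Of 32 measured genes that relay amino acid supply to mTORC1, 0 rose and 0 fell, with a median of -0.02. The Rag GTPase RRAGD was at 8.91 and 8.99 with p53si-1, against 8.63 and 8.44 with NS (difference 0.41), while its relative RRAGC was at 8.87 and 9.04 with p53si-1, against 9.30 and 9.40 with NS (difference -0.40). The folliculin partners FNIP2 and FNIP1 differed by 0.34 and 0.29. These 4 were named for their size. Over the list, 9 genes had both p53si-1 arrays above both NS arrays and 6 had them below, against 19.9% and 22.6% of all genes, and the lowest adjusted p from limma in the list was 0.194. Of 9 measured transcription factors described as regulators of these transporters, 0 passed, with EPAS1 at -0.33, KEAP1 at 0.13, MYC at 0.12 and BACH1 at -0.10.

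The 7 mammary epithelial markers had log2 signals from 9.38 to 12.6 with p53si-1 and from 9.46 to 12.5 with NS, and EPCAM had the largest difference, 0.15. None of 7 leukocyte, 8 fibroblast and 6 endothelial markers passed an adjusted p of 0.05 from limma, with CD3E at 0.10, FAP at -0.76 and KDR at 0.50 as the largest differences of each list. KDR was the only one of the 6 endothelial markers with a higher mean, and CD3E was 1 of 2 among the 7 leukocyte markers. Over all genes, 8723 of 18417 had a higher mean. Of the 8 fibroblast markers, 5 had both p53si-1 arrays below both NS arrays, against 22.6% of all genes. FAP had signals of 4.33 and 4.21 with p53si-1, against 5.02 and 5.04 with NS. The former lay under the first quartile of all signals and the latter near it, so FAP was dim on every array. The differences of the other 7 fibroblast markers lay between -0.15 and 0.06. KDR was at 8.91 and 9.18 with p53si-1, against 8.36 and 8.73 with NS. Over their lists, signals ran from 2.99 to 9.81 with p53si-1 and from 2.95 to 9.92 with NS for leukocyte markers, from 3.04 to 7.22 and from 3.13 to 7.32 for fibroblast markers, and from 4.19 to 9.18 and from 4.26 to 8.73 for endothelial markers. The highest signals of the leukocyte list were those of CD14, at 9.81 and 9.69 with p53si-1, against 9.92 and 9.71 with NS, and PTPRC, which all leukocytes carry, did not exceed 3.14 on any array. RMA signals have no 0 that marks absence. Whether FAP or KDR has any part in the transporter values was not tested.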

How the data were processed

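RNA of MDA-MB-468 cells was hybridized to 4 arrays, 2 with p53si-1 and 2 with NS shRNA. For every array the authors deposited a table of RMA values by transcript cluster, made with the Affymetrix software GCOS and Expression Console according to the submitters' processing notes. These deposited values are read as log2 because they run from 1.75 to 14.31 with array medians of 5.66 to 5.69. RMA makes array distributions alike and compresses differences of dim probes. Its settings and the annotation version were not given in the sources used here.

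Of 33297 transcript clusters, 19460 name 1 gene symbol, 1754 name several and 12083 are unnamed here. The cluster with the highest mean signal stood for each of 18417 genes, and no filter was applied. Group differences came from limma 3.58.1 in R 4.3.3, whose moderated variance had 2 residual and 4.20 prior degrees of freedom. P-values were adjusted by Benjamini-Hochberg across the whole table of genes. The limma fit and this adjustment were also run on simulated data, whose recovery of small changes is not given here. The legend of the study's heat map calls the experiments independent. Precision is limited by having 4 arrays. The named genes are the 10 transporters, up to 4 genes per list with the largest difference or any adjusted p under 0.05 (1 per marker list) and the 5 genes nearest to SLC6A14. The members and lists were chosen with earlier results of these data known. Alternatives were median centring, quantile normalization, the mean of clusters, no dim genes, the replicate block and a variance trend. Every cluster, other fold limits and leaving out each array were also used. For the alternative without dim genes, a gene was dim at a mean log2 under 5, a separate rule from that for probe sets above.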

Additional observations from a re-analysis of the deposited data

Results flagged for a closer look

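The second transcript cluster of SLC1A5 (8029854), which was not used for the gene, was higher on both p53si-1 arrays than on both NS arrays. Its log2 signals were 6.38 and 6.33 with p53si-1, against 6.19 and 6.01 with NS, a difference of 0.26, while the cluster used differed by 0.06. Groups of 2 arrays are too small to be searched for single outlying arrays.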

How the results depend on the processing

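The difference of SLC6A14 ran from 0.793 to 1.301 when single arrays were left out. Its direction could not change there, since both p53si-1 arrays lay above both NS arrays. It was 1.059 after median centring and 1.058 after quantile normalization. The mean of clusters, no dim genes and the replicate block left it at 1.047 and so are no check of it. The difference of SLC7A11 ran from -0.87 to -0.34 without single arrays. It was under 1.5-fold without p53si-1 replicate 1 or without NS replicate 2. SLC1A5 was at 0.023 after quantile normalization and at 0.159 as the mean of its clusters, both further from its value than the spread between replicates. Leaving out 1 of 2 arrays cannot move a difference by more than that spread. The sign of SLC7A5, SLC3A2, SLC38A1, SLC38A2 or SLC7A1 changed when certain arrays were left out, so their directions are not settled. The 5 genes nearest to SLC6A14 were the same under both scalings, with the mean of clusters and without dim genes. Over all genes, 50 were higher and 120 lower by over 1.5-fold. These counts were 61 to 110 and 133 to 185 without 1 array (the most without p53si-1 replicate 1, and 85 higher without NS replicate 1), 260 and 279 with every cluster counted, 267 and 471 at 1.3-fold, and 9 and 13 at 2-fold. The count at an adjusted p under 0.05 from limma was 20, with 62 after median centring, 100 without dim genes, 149 with a variance trend and 0 to 1 without any 1 array. With the replicate number as a block it was 12, of which 9 were among the 20. Same-numbered arrays deviated together (correlation 0.24 across genes), but with 2 pairs the numbers are not known to pair the arrays. SLC1A3 had an adjusted p of 0.044 from limma without dim genes, and FAP 0.0362 after median centring. When single arrays were left out, STC2 ran from -0.472 to 0.028 (positive without p53si-1 replicate 1) and CD3E from -0.007 to 0.204 (negative without p53si-1 replicate 2). SLC7A8 was not measured without dim genes. The causes were not tested.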
